A study of Arabidopsis thaliana with 48 samples.

Results

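Among 3348 Arabidopsis thaliana genes with 2 or more transcript forms that passed filters on level, length and total change, 16 genes divided their RNA among their forms differently in acc1-5 and wild-type (WT) seedlings, by at least 30 percentage points for at least 1 form. They were selected on the measured values themselves. For each gene, the share of a form was its level over the sum of all forms of that gene, and a gene was kept where the share of any form in acc1-5 and in WT differed by at least 0.3. The sum had to be at least 10 FPKM (sequenced fragments per unit of transcript length and of library size) in both genotypes and to differ less than 1.5-fold, and every form had to be 200 bases or longer. The table holds 42818 transcripts of 33553 genes, of which 6013 genes have 2 or more transcripts, and 0.478% of the 3348 genes that passed reached the share difference. This share difference chose the genes, so all levels and shares of them are given as a description, with no test. Another 4 genes reached the share difference but differed 1.5-fold or more in their sum.

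The product of ACC1 is the carboxylase that turns acetyl-CoA into malonyl-CoA in the cytosol, and acc1-5 is a mutant allele of ACC1. By its title the study is about cytosolic acetyl-CoA and the acetylation of histones. RNA was sequenced from 3 acc1-5 libraries and 3 WT libraries, and the other 42 libraries (ChIP and input) were not analysed here. Both groups were Col-0 seedlings, 12 days old, grown with 16 h of light and 8 h of dark, and both carried no other named allele. The labels repeat for every sample a spray of 20 µM estradiol or DMSO given for 24 h to 11-day-old seedlings, so whether the RNA seedlings were sprayed, and with which agent, is not clear from them. The labels give neither the lesion in acc1-5 nor whether the libraries came from separately grown plants.

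A single gene can give several mature RNAs. Introns can be kept or spliced at different sites, transcription can begin at different start sites, and the RNA can be cut and polyadenylated at different ends. In plants, the choice of form is known to change with light, temperature and stress, and some forms encode a shorter protein or are removed by nonsense-mediated decay. A short-read library does not read whole molecules: the level of each form is estimated from the few reads that fall on the bases or junctions by which the forms of a gene differ.

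The tables give 1 FPKM value per form and genotype with a lower and an upper bound from the authors' program, and no spread between libraries. Their confidence level is given in no source used here, and library depth is unknown. ACC1 itself (AT1G36160) gave 33.4 FPKM (bounds 21.4 to 45.4) in acc1-5 and 33.1 FPKM (21.6 to 44.7) in WT for its main form, so its level does not separate the genotypes. The seedlings differed in other ways, described here by marker lists that were written after results of these data were known. Root hair markers were higher in acc1-5 for 7 of 7 genes, with a summed level of 113 FPKM in acc1-5 and 13.5 FPKM in WT, and root endodermis and suberin markers for 12 of 12, with 67.9 FPKM in acc1-5 and 17.8 FPKM in WT. Light harvesting and Rubisco small subunit genes were higher in acc1-5 for 0 of 10, with 17397 FPKM in acc1-5 and 31638 FPKM in WT, and no marker of the 3 lists was at 0 in either genotype. In such whole-seedling RNA, fewer cells of a type and less RNA per cell cannot be told apart, and the part of these markers in the shares of forms was not tested.

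By the estimated levels alone, the label given to the genes, a shift of the main form, held for 6 of the 16. In AT3G28540, AT4G23895, AT1G76140, AAPT1, HTA8 and PIF3 the form with the highest level in acc1-5 was not the form with the highest level in WT. In the other 10 genes the same form led in both genotypes, and its share differed. Among all genes that passed the filters, 2.78% had another leading form in acc1-5 than in WT, a figure that includes these 6. The largest share difference of each gene ran from 30.2 to 76.4 points, with a median of 40.2 points, and was 50 points or more in 4 genes. Across the 3348 genes its median was 1.23 points, with a 95th percentile of 10.5 points and a 99th percentile of 21.0 points.

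**Figure D1:**
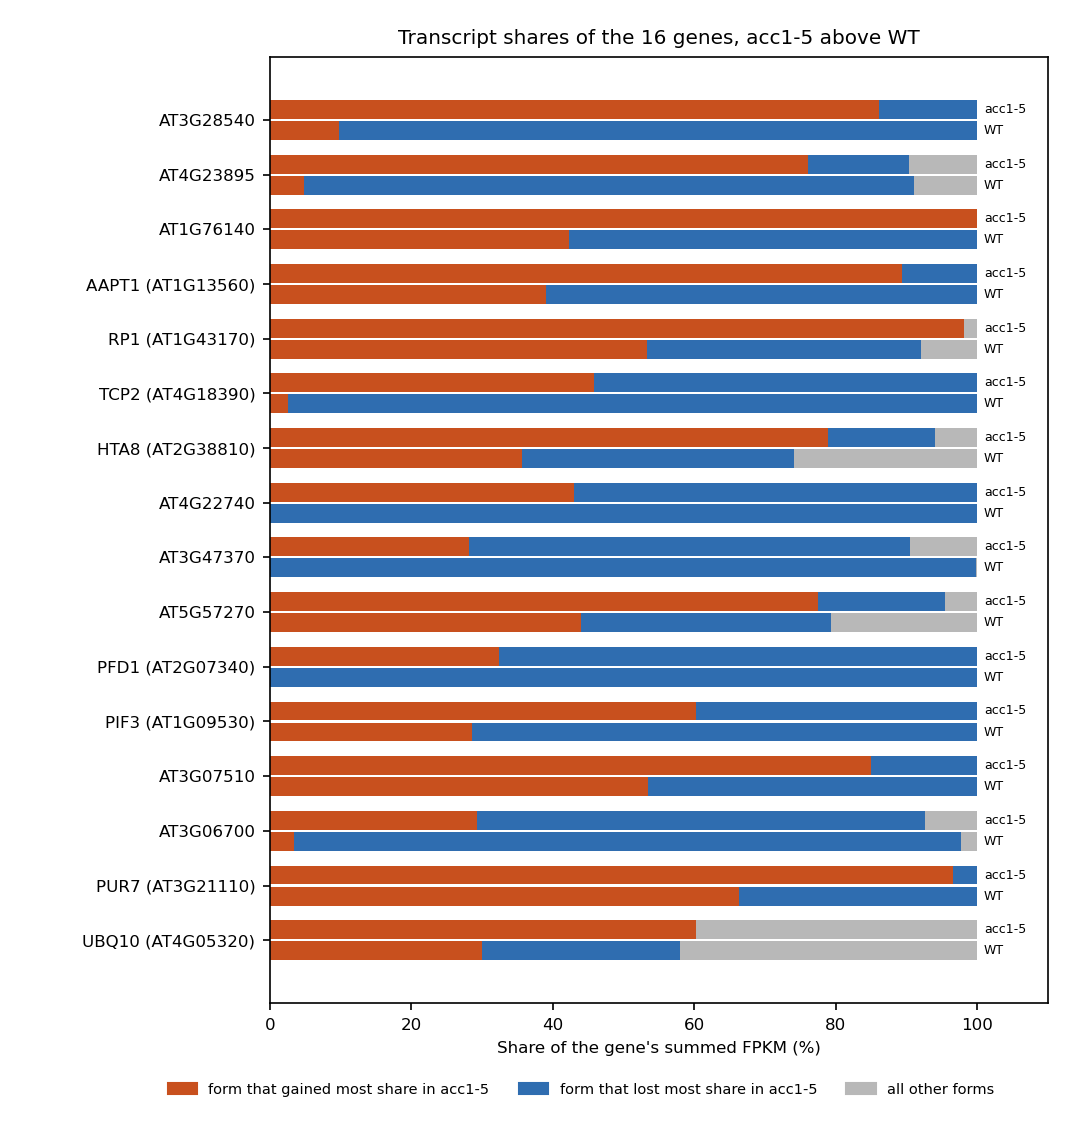
Shares of transcript forms in the summed FPKM of their gene (x axis, percent) for the 16 genes, with the acc1-5 bar above the WT bar. The pieces are the form that gained most share in acc1-5, the form that lost most, and all other forms joined. In 6 genes the form with the highest share differs between the 2 bars, and in 10 genes it is the same. The joined piece can hold several forms, as in UBQ10, so its length does not show a leading form.

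The transcription factors with a symbol are TCP2 and PIF3, each with 2 forms. TCP2 (AT4G18390, chromosome 4, 10162953 to 10165562 on TAIR10) is a TCP-family factor of the class that limits cell division in growing leaves. Its form TCP2.2 (1569 bases) had 7.68 FPKM (bounds 1.87 to 13.5) in acc1-5 and 0.497 FPKM (0 to 1.79) in WT, so the bounds did not overlap, and its share was 45.8% in acc1-5 and 2.50% in WT. The longer form TCP2.1 (1845 bases) had 9.08 FPKM (3.16 to 15.0) in acc1-5 and 19.3 FPKM (13.2 to 25.5) in WT. In WT, then, TCP2 RNA was nearly all of the longer form, and in acc1-5 both forms had similar levels. In the authors' deposited table TCP2.1 fell by 1.09 on the log2 scale in acc1-5, with a q-value of 0.0132, while TCP2.2 had a log2 fold change of 3.95 with a q-value of 0.177.

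TCP2.1 was the only called form of the 16 genes, where called means a q-value under 0.05 in the authors' deposited table. That makes 1 of 16 genes with a called form, against 2.59% of the 3287 filtered genes with a tested form, and 16.3% of all 25307 tested transcripts were called. Genes had to keep a similar sum to enter, and the same contrast chose them, so nothing is read from these shares. Of the 54 forms listed for the 16 genes, 40 were tested by the authors' program, and the q-values of the other 39 tested forms ran from 0.129 to 0.775 in the authors' deposited table.

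PIF3 (AT1G09530, chromosome 1, 3076582 to 3079539) is a basic helix-loop-helix factor that binds phytochrome and acts in seedling light responses. PIF3.1 (1957 bases) had 31.7 FPKM (17.99 to 45.5) in acc1-5 and 10.7 FPKM (0.465 to 22.3) in WT. PIF3.2 (1997 bases) had 20.9 FPKM (9.60 to 32.3) in acc1-5 and 26.8 FPKM (13.0 to 40.5) in WT. The leading form was thus PIF3.1 in acc1-5, with a share of 60.2%, and PIF3.2 in WT, with a share of 71.5%, and the bounds of both forms overlapped between the genotypes. The sum of both forms was 52.7 FPKM in acc1-5 and 37.4 FPKM in WT, at 1.41-fold the highest ratio of acc1-5 to WT sums among the 16 and close to the limit of 1.5. In the authors' deposited table PIF3.1 had a log2 fold change of 1.57 with a q-value of 0.131.

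HTA8 (AT2G38810, chromosome 2, 16219269 to 16220928) encodes a histone H2A of the H2A.Z type, a variant that replaces H2A in some nucleosomes, often near transcription starts. It was the single histone gene among those with a symbol. HTA8.1 (688 bases) had 10.3 FPKM (4.73 to 15.8) in acc1-5 and 4.34 FPKM (0 to 10.1) in WT, a share of 78.9% in acc1-5 and 35.6% in WT. HTA8.3 (720 bases) had 1.98 FPKM in acc1-5 and 4.70 FPKM in WT, and HTA8.2 (607 bases) had 0.767 FPKM in acc1-5 and 3.15 FPKM in WT. One form therefore led in acc1-5, and in WT the 3 forms lay between 25.8% and 38.5%. HTA8.3 led in WT only narrowly, with 38.5% against 35.6% for HTA8.1. The bounds of all 3 forms overlapped between the genotypes, and in the authors' deposited table HTA8.1 had a q-value of 0.390.

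Among the genes with a symbol, those for making, folding and tagging proteins were RP1, PFD1 and UBQ10. RP1 (AT1G43170, chromosome 1, 16266641 to 16268870) encodes a protein of the large ribosomal subunit and has 11 listed forms in 2 start groups, sets of forms that share a transcription start. RP1.1 (1496 bases) had 476.6 FPKM (282 to 672) in acc1-5 and 254 FPKM (0.630 to 554) in WT, a share of 98.2% in acc1-5 and 53.3% in WT. RP1.3 (1447 bases) was listed at 0 in acc1-5 and at 185 FPKM (0 to 523) in WT. The start group that holds RP1.2 and RP1.3 took 1.66% of the gene in acc1-5 and 46.6% in WT, so this difference lay between start groups. The lower bound of that WT level is 0, and in the authors' deposited table RP1.3 had a q-value of 0.149.

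UBQ10 (AT4G05320, chromosome 4, 2718170 to 2720308) encodes polyubiquitin, a chain of ubiquitin units that is cut into single ubiquitins for tagging proteins. UBQ10.6 (1270 bases) had 316 FPKM (149 to 482) in acc1-5 and 198 FPKM (0 to 731) in WT, and UBQ10.1 (1432 bases) had 208 FPKM in acc1-5 and 118 FPKM in WT. UBQ10.3 (1550 bases) had 0.217 FPKM in acc1-5 and 185 FPKM (0 to 421) in WT, and UBQ10.2 (1835 bases) was listed at 0 in acc1-5 and at 155 FPKM (0 to 357) in WT. So UBQ10.6 with 60.2% and UBQ10.1 with 39.7% held nearly all of the gene in acc1-5, and in WT the 4 forms held between 17.9% and 30.01% each. The other 3 listed forms were at 2.17 FPKM or less in both genotypes, and the WT bounds of UBQ10 were the widest of the 16 genes for their level. Ubiquitin units are near copies of each other within the gene and in other ubiquitin genes, and ribosomal protein genes have close relatives. The counting could split or misplace reads among such copies, so the single levels of UBQ10 and RP1 are uncertain. The placing of reads was not examined for any of the 16 genes, and its part in their share differences was not tested.

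PFD1 (AT2G07340, chromosome 2, 3045559 to 3046744) encodes a subunit of prefoldin, a chaperone that hands newly made actin and tubulin to the folding machinery. PFD1.2 (607 bases) had 16.7 FPKM (0 to 61.9) in acc1-5 and 0.00344 FPKM in WT, where both bounds are given as 0 and the value lies outside them. PFD1.1 (609 bases) had 34.7 FPKM (0 to 69.5) in acc1-5 and 47.9 FPKM (31.5 to 64.4) in WT. The forms differ by 2 bases in length, the smallest gap of the 16 genes, and the share of PFD1.2 was 32.4% in acc1-5 with bounds that reach 0.

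The metabolic enzymes with a symbol were AAPT1 and PUR7. AAPT1 (AT1G13560, chromosome 1, 4638514 to 4642104) is an aminoalcoholphosphotransferase that makes phosphatidylcholine and phosphatidylethanolamine from diacylglycerol. AAPT1.2 (1649 bases) had 35.8 FPKM (23.6 to 48.0) in acc1-5 and 17.8 FPKM (0.407 to 50.2) in WT. AAPT1.1 (1666 bases) had 4.21 FPKM (0 to 10.3) in acc1-5 and 27.7 FPKM (1.11 to 54.4) in WT. The leading form was AAPT1.2 in acc1-5, with 89.5%, and AAPT1.1 in WT, with 60.9%, and in the authors' deposited table AAPT1.1 had a q-value of 0.129.

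PUR7 (AT3G21110, chromosome 3, 7402481 to 7405641) encodes SAICAR synthetase, an enzyme of purine synthesis. PUR7.2 (1667 bases) had 20.6 FPKM (13.6 to 27.6) in acc1-5 and 12.1 FPKM (1.55 to 22.7) in WT, a share of 96.6% in acc1-5 and 66.4% in WT. PUR7.1 (1710 bases) had 0.727 FPKM (0 to 3.68) in acc1-5 and 6.15 FPKM (0 to 17.4) in WT. The same form led in both genotypes, the minor form held 3.41% in acc1-5 and 33.6% in WT, and the bounds of both forms overlapped.

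**Figure D2:**
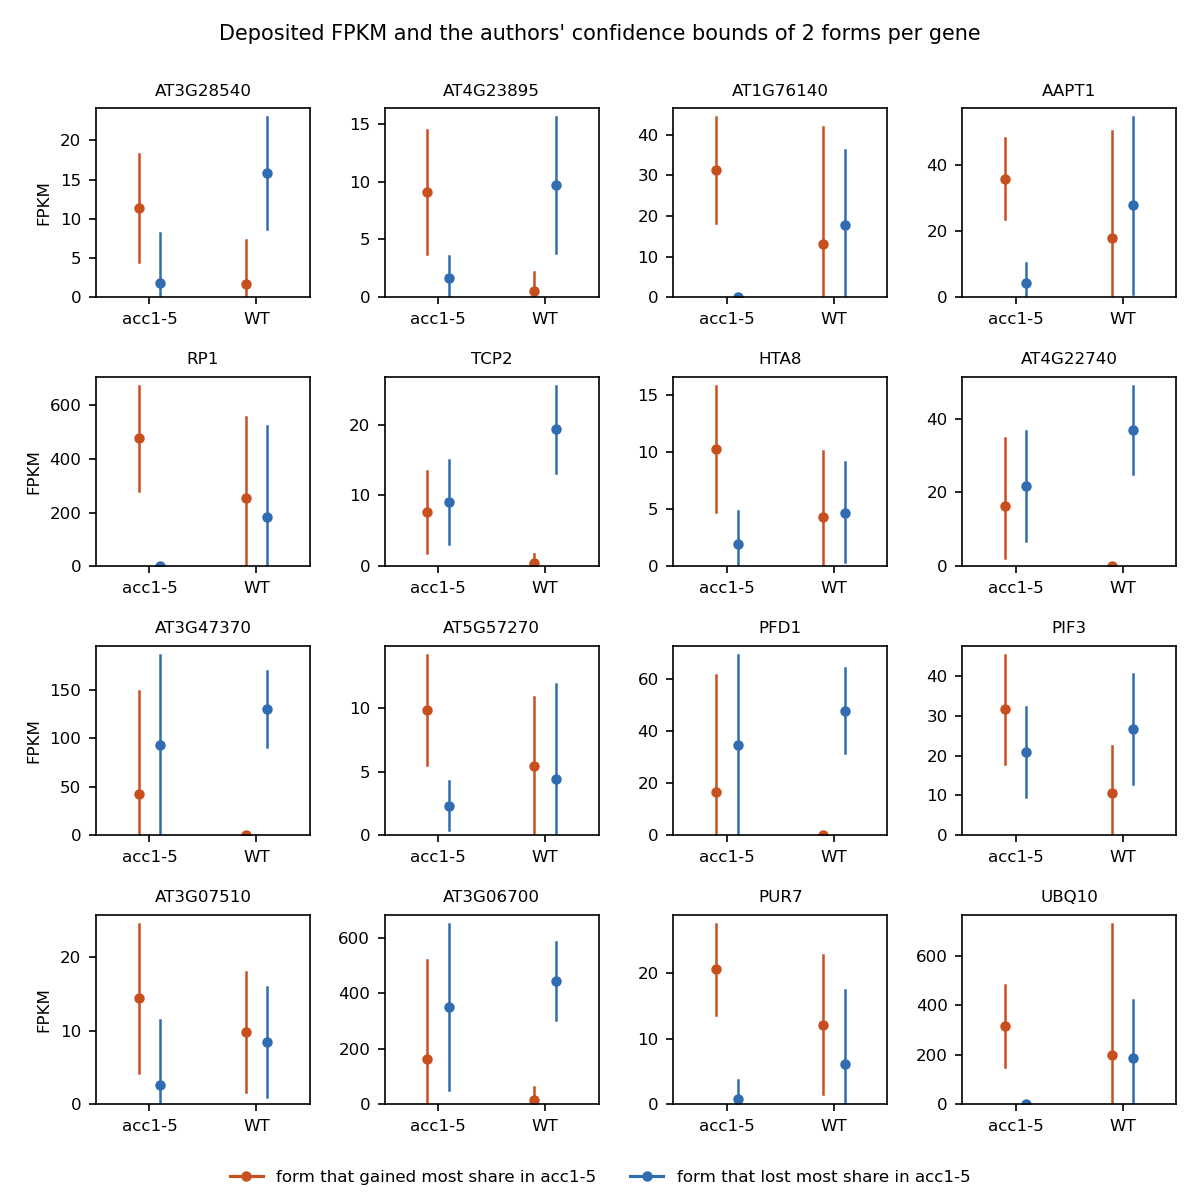
FPKM (y axis) of the form that gained most share and the form that lost most share in each of the 16 genes, acc1-5 left of WT, with the authors' lower and upper bounds as bars. The bounds of a plotted form stay clear of each other between the genotypes in AT3G28540, AT4G23895, TCP2 and AT4G22740.

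The other 8 genes have no symbol in the annotation used here and are given by their locus. AT3G28540 (chromosome 3, 10694444 to 10696123) had the largest share difference, 76.4 points. AT3G28540.2 (1641 bases) had 11.4 FPKM (4.49 to 18.2) in acc1-5 and 1.72 FPKM (0 to 7.27) in WT, a share of 86.2% in acc1-5 and 9.79% in WT. AT3G28540.1 (1680 bases) had 1.83 FPKM (0 to 8.16) in acc1-5 and 15.8 FPKM (8.68 to 23.0) in WT, with bounds that did not overlap. The exchange was near complete in the estimates, yet in the authors' deposited table the q-values of the 2 forms were 0.539 for AT3G28540.2 and 0.526 for AT3G28540.1.

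AT4G23895 (chromosome 4, 12422087 to 12429461) followed with 71.9 points. AT4G23895.2 (1138 bases) had 9.06 FPKM (3.70 to 14.4) in acc1-5 and 0.550 FPKM (0 to 2.23) in WT, and AT4G23895.1 (1144 bases) had 1.70 FPKM (0 to 3.60) in acc1-5 and 9.71 FPKM (3.84 to 15.6) in WT. Both forms had bounds that did not overlap, which no other gene of the 16 had for 2 forms. The authors' program marked both as having too few data and gave no test, and the locus is shared with AT4G23900 and AT4G23910, whose part in these levels was not tested.

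AT4G22740 (chromosome 4, 11941131 to 11945956) had 2 forms. AT4G22740.1 (1318 bases) had 16.4 FPKM (2.29 to 34.8) in acc1-5 and 3.18e-04 FPKM (0 to 0.0812) in WT, and AT4G22740.2 (1353 bases) had 21.7 FPKM (6.73 to 36.8) in acc1-5 and 36.9 FPKM (24.9 to 48.9) in WT. In WT nearly all of the gene was AT4G22740.2, and in acc1-5 AT4G22740.1 held 43.0%. The bounds of AT4G22740.1 did not overlap, yet in the authors' deposited table its q-value was 0.569, and that of AT4G22740.2 was 0.242.

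AT1G76140 (chromosome 1, 28571130 to 28577700) went the other way, with a single form in acc1-5. AT1G76140.1 (2629 bases) had 31.3 FPKM (18.3 to 44.3) in acc1-5 and 13.0 FPKM (0 to 41.8) in WT, a share of 99.99% in acc1-5 and 42.2% in WT. AT1G76140.2 (2620 bases) had 0.00282 FPKM (0 to 0.0188) in acc1-5 and 17.8 FPKM (0 to 36.2) in WT. The WT bounds of both forms reach 0, so either form alone could hold the gene there within the bounds.

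AT3G47370 (chromosome 3, 17453478 to 17454721) and AT3G06700 (chromosome 3, 2117347 to 2118007) were spread over 3 forms in acc1-5 and nearly of 1 form in WT. AT3G47370.1 (689 bases) had 92.9 FPKM (0 to 186) in acc1-5 and 130 FPKM (91.2 to 169) in WT, a share of 62.4% in acc1-5 and 99.8% in WT. AT3G47370.2 (620 bases) had 42.0 FPKM (0 to 148) in acc1-5 and was listed at 0 in WT. AT3G06700.1 (463 bases) had 351 FPKM (49.9 to 653) in acc1-5 and 444 FPKM (303 to 586) in WT, a share of 63.4% in acc1-5 and 94.3% in WT. AT3G06700.3 (423 bases) had 162 FPKM (0 to 523) in acc1-5 and 15.9 FPKM (0 to 60.1) in WT. The third forms were AT3G47370.3 (649 bases), with 14.1 FPKM in acc1-5 and 0.227 FPKM in WT, and AT3G06700.2 (458 bases), with 40.5 FPKM in acc1-5 and 10.9 FPKM in WT. In both genes the minor forms had acc1-5 bounds that reach 0.

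AT5G57270 (chromosome 5, 23200614 to 23203792) and AT3G07510 (chromosome 3, 2392287 to 2394675) kept their leading form. AT5G57270.1 (1907 bases) had 9.86 FPKM (5.52 to 14.2) in acc1-5 and 5.48 FPKM (0.106 to 10.8) in WT, a share of 77.5% in acc1-5 and 44.0% in WT. AT5G57270.2 (1922 bases) had 2.29 FPKM (0.370 to 4.23) in acc1-5 and 4.39 FPKM (0 to 11.9) in WT, and AT5G57270.3 (1704 bases) had 0.570 FPKM (0 to 2.61) in acc1-5 and 2.57 FPKM (0.0905 to 5.07) in WT. The leading form thus held more of the gene in acc1-5 and both minor forms less. AT3G07510.2 (865 bases) had 14.4 FPKM (4.28 to 24.6) in acc1-5 and 9.79 FPKM (1.64 to 17.98) in WT, a share of 85.1% in acc1-5 and 53.5% in WT. AT3G07510.1 (898 bases) had 2.54 FPKM (0 to 11.4) in acc1-5 and 8.49 FPKM (0.977 to 16.0) in WT. The bounds of all forms of these genes overlapped between the genotypes.

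The bounds were then used as a check on the 16 genes. At least 1 form had bounds that did not overlap between acc1-5 and WT in 4 genes (AT3G28540, AT4G23895, TCP2 and AT4G22740), with 5 such forms, and in 12 genes none had. Among all 3348 genes, 5 (0.149%) had such a form, so only 1 gene outside the 16 did. That gene was PTM (AT5G35210), whose share differed by 8.19 points. Because the same levels chose the 16, nothing is read from this count. Of the 5 forms in the 16 genes, 2 (AT4G23895.1 and AT4G23895.2) were marked by the authors' program as having too few data.

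A stricter check took the lowest share that the bounds allow for a form, with the form at its lower bound and the others at their upper bounds, and the highest share in the same way. By this measure the share of AT4G22740.1 could lie between 5.86% and 83.8% in acc1-5 and between 0% and 0.325% in WT, and AT4G22740 was the only one of the 16 whose ranges stayed apart. Among all 3348 genes, 2 (0.0597%) had such ranges, the other one being PTM (AT5G35210), and nothing is read from this count either. For TCP2.2 the ranges overlapped by less than 1 point, at 11.1% to 81.0% in acc1-5 and 0% to 12.0% in WT. For the other 14 genes they touched or overlapped. For AT1G76140.1 the acc1-5 range was only 99.9% to 100%, but the WT bounds allowed any share.

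**Figure D3:**
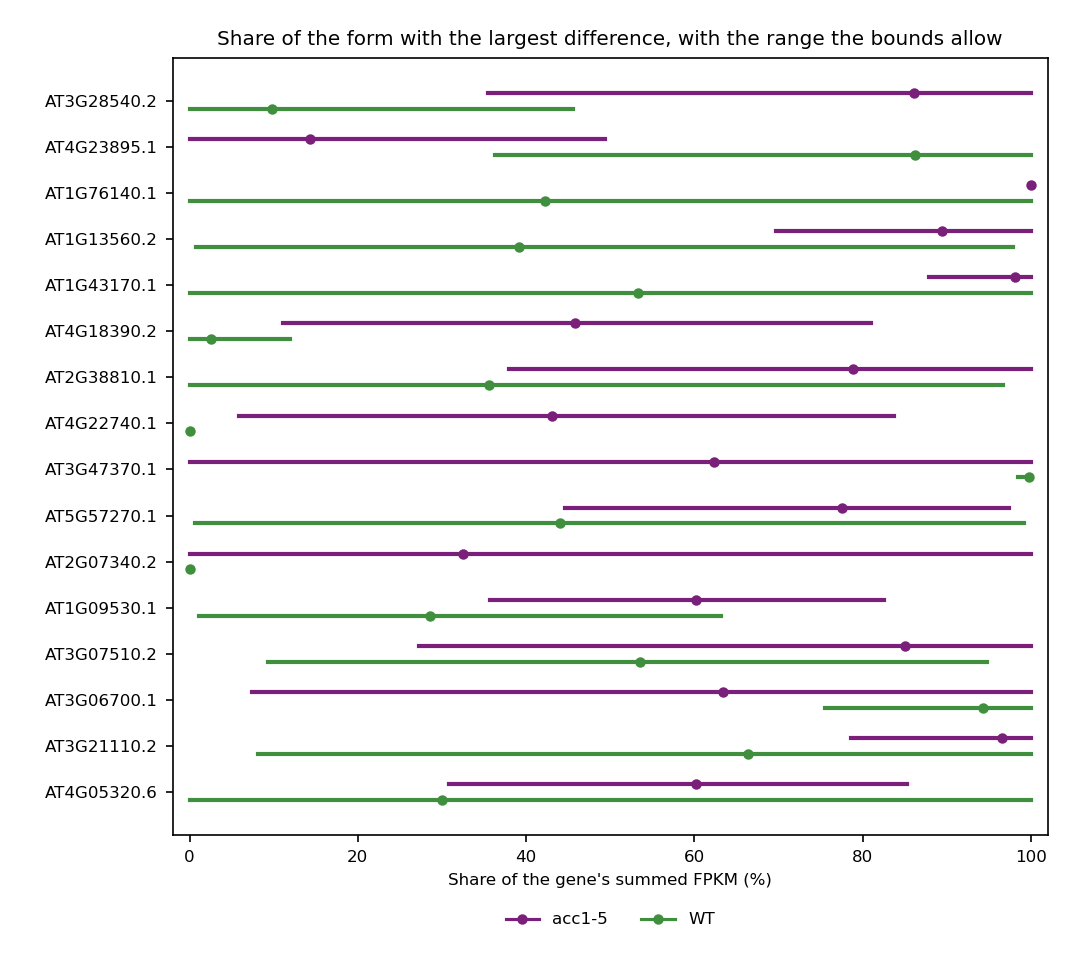
Share (x axis, percent) of the form with the largest share difference in each of the 16 genes, acc1-5 above WT, with lines for the range that the bounds of all forms of the gene allow. The acc1-5 and WT lines stay apart for AT4G22740, barely overlap for TCP2, and touch or overlap for the other 14 genes.

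The bounds of the 16 genes were wide. The mean distance from the middle of the bounds to either bound, summed over the forms of a gene and divided by the gene's summed FPKM, had a median of 71.1% in acc1-5 and 83.9% in WT for the 16 genes, against 41.9% in acc1-5 and 41.7% in WT for all 3348. The wider bounds were in acc1-5 for 7 genes and in WT for 9. In 9 of the 16 genes a single form held at least 90% of the gene in 1 genotype and no form did so in the other: WT was the single-form genotype in 6 (AT3G28540, TCP2, AT4G22740, AT3G47370, PFD1 and AT3G06700) and acc1-5 in 3 (AT1G76140, RP1 and PUR7). In all 9 the bounds were wider in the genotype that held several forms. Of the 174 such genes among the 3348, 140 had the wider bounds there, so wide bounds and a divided gene went together beyond the 16 as well. The part of this in the share differences was not tested.

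The forms that exchanged share were close in length. The gap between the form that gained most share in acc1-5 and the form that lost most had a median of 37 bases in the 16 genes and 86 bases in the 3065 filtered genes that have such a pair, since 283 genes had a share difference of 0. It was at most 50 bases in 13 of the 16 genes, against 33.1% of the 3065, and at most 20 bases in 5, against 18.8%. The largest gaps were 280 bases in UBQ10 and 276 bases in TCP2. The form that gained share in acc1-5 was the shorter one in 14 genes and the longer one in 2, AT1G76140 and RP1. Among the 3050 filtered genes whose gaining and losing forms differ in length, the gaining form was the longer one in 48.0%. With a share difference of 0.2 as the limit, 15 of 40 genes gained the longer form. Forms of 1 gene are not independent of each other and only 16 genes are involved, so this is given as a count. Which bases differ between the forms was not analysed here.

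**Figure D4:**
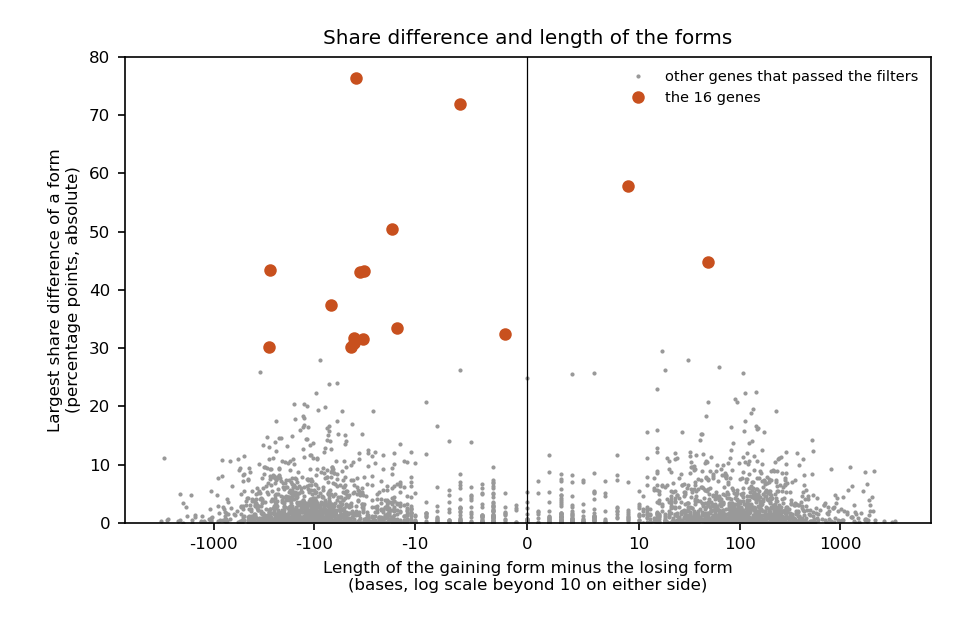
Length of the gaining form minus that of the losing form in bases (x axis, linear near 0 and logarithmic beyond) against the largest share difference in points (y axis) for the 3065 filtered genes with a gaining and a losing form, the 16 genes marked. Most of the marked genes lie left of 0 and near it, with TCP2 and UBQ10 farthest to the left.

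The gaining and losing forms shared a start group in 14 of the 16 genes. Nothing is read from this count, since 82.1% of the 3065 filtered genes with such a pair did as well. The gaining and losing forms lay in different groups in RP1 and AT3G07510, in which AT3G07510.2 and AT3G07510.1 each make up a group. AT3G47370 and AT5G57270 also have 2 start groups, and there the gaining and losing forms lay in the same group. The group of AT5G57270.1 and AT5G57270.2 held 95.5% in acc1-5 and 79.4% in WT, and that of AT3G47370.3 held 9.44% in acc1-5 and 0.174% in WT. The other 12 genes have 1 start group each. Forms assembled from the reads that match no annotated form of the gene, 6 in 3 genes, held at most 3.86% of a gene.

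The genes were neither the lowest nor the highest expressed. Their mean summed level over the 2 genotypes ran from 11.6 to 592 FPKM with a median of 34.3 FPKM, against a median of 29.6 FPKM over all filtered genes. With the 3348 genes in 4 equal groups by that level, low to high, the groups held 5, 2, 5 and 4 of the 16, while the median share difference of all genes in them was 2.14, 1.68, 1.14 and 0.381 points. The sum was higher in acc1-5 for 11 of the 16 genes and lower for 5, and the ratio of acc1-5 to WT ran from 0.752 in AT3G28540 to 1.41 in PIF3. They lay on all 5 chromosomes.

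**Figure D5:**
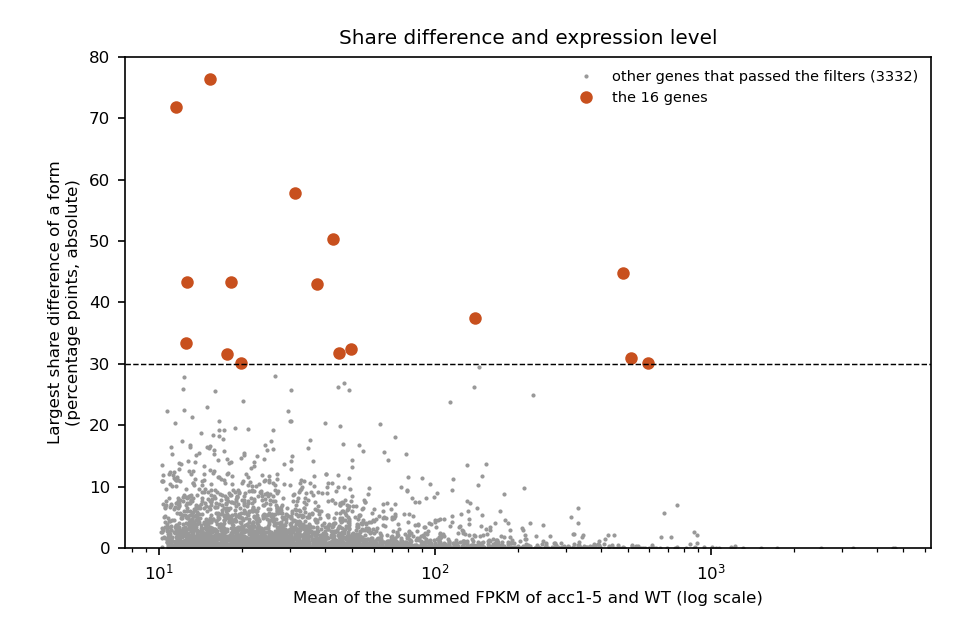
Mean summed FPKM of the 2 genotypes (x axis, logarithmic) against the largest share difference in points (y axis) for the 3348 filtered genes, with the 16 genes marked above the 30-point line. The marked genes spread over the range of levels from 11.6 to 592 FPKM.

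At the threshold of 30 points, AT3G06700 (30.9), PUR7 (30.2) and UBQ10 (30.2) lay just inside. The carbonic anhydrase gene BCA4 (AT1G70410) with 29.5 points, GLTP3 (AT3G21260) with 27.9 and TCP4 (AT3G15030) with 27.9 lay just outside. TCP4 is a leaf factor of the same class as TCP2. TCP4.1 (2209 bases) had 6.45 FPKM (2.88 to 10.0) in acc1-5 and 13.6 FPKM (8.31 to 18.8) in WT, a share of 64.4% in acc1-5 and 92.3% in WT, and TCP4.2 (2121 bases) had 2.73 FPKM (0 to 6.78) in acc1-5 and 0.172 FPKM (0 to 0.732) in WT. TCP4.3 (2033 bases) had 0.841 FPKM in acc1-5 and 0.960 FPKM in WT. The bounds of all 3 forms overlapped, and in the authors' deposited table the q-value was 0.0125 for TCP4.1, 0.440 for TCP4.2 and 0.979 for TCP4.3. BCA4.2 had 30.7 FPKM in acc1-5 and 81.2 FPKM in WT, with a q-value of 0.0357 in the authors' deposited table. GLTP3.1 held 37.4% of its gene in acc1-5 and 65.3% in WT.

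Genes that act on RNA processing, the clock or histone acetylation were looked at for the same kind of difference. None of the 16 genes was in these lists, and no form of the listed genes that passed the filters was called. Over all filtered genes, 0.478% of the 3348 were among the 16. A called form was found in 2.59% of the 3287 with a tested form. With shares this low and short lists, nothing is read from the absence. Of 20 genes for SR proteins, which bind exons and recruit the spliceosome, 14 passed the filters, with a median largest share difference of 2.90 points and a highest of 11.7 points in SR45a. Of 16 other splicing factors 12 passed, with a median of 2.09 points. The highest was PTB3, a polypyrimidine tract-binding protein, at 25.8 points: PTB3.1 held nearly the whole gene in acc1-5 and 74.2% in WT, and its lowest q-value was 0.362 in the authors' deposited table. The range that the bounds allow for PTB3.1 began at 99.6% in acc1-5 and at 31.6% in WT and reached the whole gene in both, so the ranges overlapped.

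The remaining lists were those of RNA decay, polyadenylation, the clock and histone acetylation. Of 4 nonsense-mediated decay genes 2 passed, with a highest difference of 2.21 points. Of 12 polyadenylation genes 7 passed, with a median of 2.87 points and a highest of 12.6 points in FPA, which acts on poly(A) site choice and flowering. Of 16 clock genes 5 passed, with a median of 3.25 points and a highest of 11.4 points in LUX, an evening complex factor. Of 25 histone acetyltransferase and deacetylase genes 9 passed, with a median of 0.595 points and a highest of 10.9 points in HAC12, an acetyltransferase. The median over all 3348 genes was 1.23 points.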

How the data were processed

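The deposited transcript levels are FPKM, of which the authors give 1 value per genotype between a lower and an upper bound. Per the file headers, their comparison gives a p-value and a q-value per transcript, with a status that says whether it was tested. The tools named are Cuffdiff 2.1.1, Cufflinks 2.1.1, TopHat 1.4.0 and Bowtie, with the build TAIR10, per the submitters' processing notes. How the 3 libraries of a genotype were combined is not given in the sources used here. Columns named ACC1 were read as acc1-5.

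Shares, differences of shares and the ranges the bounds allow were computed with Python 3.11.15, pandas 2.3.3 and numpy 2.4.6, and figures were drawn with matplotlib 3.10.9. The program was tested on simulated levels with planted share differences and no noise. That checks the computation of shares only, not how well estimated levels show real differences. Start positions, deposited as counted from 0, were raised by 1. Of the 16 genes, all 16 were found in the RefSeq table (TAIR10.1, used for names only) and 8 have a symbol there. The level filters left 3918 genes with a sum of at least 10 FPKM, 3917 with every form of 200 bases or longer, and 3348 under the fold limit.

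The genes and lists were chosen with earlier results of these data known, and the marker lists were written after such results. All 16 genes are named, with the 3 nearest genes outside the threshold, and of the listed genes those at 20 points or more and the highest of a list; PTM and ACC1 were added. The exact permutation test planned for values of single libraries could not be run on 1 value per genotype. Low FPKM values were not whole multiples of a step (at best 21.7% in acc1-5 and 21.3% in WT lay within 5% of one), so reads were not recovered and depth is unknown. Alternatives varied the thresholds, filters, a pseudocount and the use of the bounds.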

Additional observations from a re-analysis of the deposited data

How the results depend on the processing

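The 16 genes rest on the thresholds. With a share difference of 0.2, 40 genes entered, of which 17 exchanged their leading form and 15 gained a longer form. A difference of 0.4 left 8 genes, a sum of at least 20 FPKM left 9 genes with 3 exchanges, and no filter on FPKM gave 70 genes. Requiring bounds that do not overlap for a form with the largest difference left 4 genes, where in a gene of 2 forms both have that difference and 1 is enough, as for AT3G28540.1. Of these 4, 2 exchanged their leading form and 0 gained a longer one, 2 counts added after the data were seen. Requiring ranges of shares that stay apart, also added later, left 1 gene, against 2 of all 3348. At a q-value under 0.01, 0 genes had a called form in the authors' deposited table. Of 29 counts under alternatives, 17 lay within 1.5 times the main count, among them 15 genes without the shared locus of AT4G23895. These are raw counts from sets of unlike size, many of them subsets of the 16 genes, so they do not measure how stable the results are. With a pseudocount of 1 FPKM, 4 genes fell below a share difference of 0.3 (AT5G57270, AT3G07510, PUR7 and UBQ10) and 12 did not. Under this pseudocount the share difference of the form with the largest difference kept its sign in all 16 genes. No paired analysis was possible because the tables give 1 value per genotype, and for the same reason leaving out single libraries was not run. Unknown depth limits low forms most: a form listed at 0 may be a failed estimate.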
